A study of Mus musculus with 22 samples.

Results

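Neuronal adhesion and synapse organizer genes were followed in a map of H3K27me3, the repressive histone mark written by Polycomb repressive complex 2 (PRC2), in mouse retina at embryonic day 18.5. The set was a list of 54 gene symbols, and its members were the rows of the deposited peak table that carry one of these symbols. Peaks were assigned to 44 of the 54 genes, 86 of the 19034 peaks in all and 44 of the 12370 genes with a peak. The other 10 (Cdh2, Cdh4, Cdh7, Cdh9, Cdh20, Flrt1, Pcdh18, Slitrk6, Nlgn1 and Cntn6) had no peak under their name. They were not analysed here, apart from a peak in the gene body of Flrt1 that carries another name.

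The mark was measured by CUT&RUN, in which an antibody directs a nuclease to cut out the DNA next to the marked histones. The samples were 5 conditional knockouts (cKO, Jarid2 fl/fl; Rx-cre) and 5 controls, all C57BL/6. Jarid2 is an accessory subunit of PRC2. Both groups descended from dams given tamoxifen at 75 μg per g body weight at E10.5, and the protocol text names the driver Rax-CreERT2, a tamoxifen-inducible Cre under control of a retinal progenitor gene. Cells outside that lineage, and progenitors in which recombination failed, would keep Jarid2. Of the controls, replicate 1 was Jarid2 fl/+; Rx-cre, replicates 2, 4 and 5 were Jarid2 fl/+, and replicate 3 was Jarid2 fl/fl. The protocol text gives Jarid2 fl/fl for the controls of the first batch and names no Cre in them, where the sample labels give fl/+ for both and Rx-cre for replicate 1, and the sample labels were followed. Batch 1 held 2 animals of each genotype and both sexes (control replicate 2 and cKO replicate 1 were female). Batch 2 held 3 of each, all male littermates, each with a pair of technical duplicate libraries. Both retinas of an animal were pooled, and 300000 cells went into a reaction. The retina is a mixture of cell types, so fewer cells carrying the mark and less mark per cell cannot be told apart.

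Each animal had 1688368 to 2864080 reads in peaks, of which 0.598% to 0.704% lay in peaks of the adhesion genes. Values are CPM (reads per 1000000 reads in peaks, after TMM scaling), given as mean ± SD over the 5 animals of a group where a single figure is shown, and summed over the peaks of a gene unless a single peak is named. Of 10 genes that specify tissues other than the retina, 6 had a peak, with a median control level of 31.3 CPM per kb of peak, and of 7 genes of retinal identity 3 had a peak, with a median of 4.52 CPM per kb.

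Cadherins and protocadherins hold cells of like type together by binding the same protein on the neighbouring cell. Leucine-rich repeat proteins (SLITRK, FLRT, LRRTM and LRRN), latrophilins, teneurins, contactins and neurexins meet different partners across the synaptic cleft, and cerebellins and neurexophilins are secreted and bind neurexins there. In the retina such proteins sort the processes of neurons into layers and match synaptic partners. PRC2 is known to gather at CG-rich promoters of developmental genes that are silent in a tissue.

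The promoters of 6 members that the results below turn on show how much the DNA under the mark differed within the set. They are the 300 bases from 250 before to 50 after the start of transcription in RefSeq (GRCm38.p6, the assembly that mm10 represents), each lying wholly inside a tested peak of its gene, and the capitals mark every CG dinucleotide. Flrt2, Flrt3, Slitrk1 and Cdh8 lay under peaks with less H3K27me3 in cKO, and Nxph1 and Sdk1 lay under heavily marked peaks that did not pass the test.
Flrt2 promoter, chr12:95691976-95692275, plus strand: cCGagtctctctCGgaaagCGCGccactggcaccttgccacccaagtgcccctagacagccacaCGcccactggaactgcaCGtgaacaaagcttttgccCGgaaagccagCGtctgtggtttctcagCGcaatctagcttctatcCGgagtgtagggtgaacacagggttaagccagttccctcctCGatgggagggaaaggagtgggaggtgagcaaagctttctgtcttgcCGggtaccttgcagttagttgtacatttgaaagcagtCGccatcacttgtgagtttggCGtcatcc
Flrt3 promoter, chr2:140671427-140671726, minus strand: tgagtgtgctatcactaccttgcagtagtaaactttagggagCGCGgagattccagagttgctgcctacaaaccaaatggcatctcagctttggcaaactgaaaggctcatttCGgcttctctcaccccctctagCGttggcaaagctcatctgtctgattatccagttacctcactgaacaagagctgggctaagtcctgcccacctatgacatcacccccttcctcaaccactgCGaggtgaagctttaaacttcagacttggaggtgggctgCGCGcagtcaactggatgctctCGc
Slitrk1 promoter, chr14:108914190-108914489, minus strand: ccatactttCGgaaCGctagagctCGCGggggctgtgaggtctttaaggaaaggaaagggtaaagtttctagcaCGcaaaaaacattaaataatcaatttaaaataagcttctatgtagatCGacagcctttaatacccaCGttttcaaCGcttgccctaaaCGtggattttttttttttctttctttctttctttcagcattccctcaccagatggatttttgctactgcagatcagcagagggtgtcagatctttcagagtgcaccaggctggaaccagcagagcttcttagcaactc
Cdh8 promoter, chr8:99416422-99416721, minus strand: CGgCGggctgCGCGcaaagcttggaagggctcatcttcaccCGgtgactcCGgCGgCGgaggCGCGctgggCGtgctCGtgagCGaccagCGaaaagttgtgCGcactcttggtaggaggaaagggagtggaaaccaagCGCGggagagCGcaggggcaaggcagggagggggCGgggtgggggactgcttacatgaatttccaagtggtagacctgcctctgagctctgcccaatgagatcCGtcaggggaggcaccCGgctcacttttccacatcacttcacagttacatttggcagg
Nxph1 promoter, chr6:8949769-8950068, plus strand: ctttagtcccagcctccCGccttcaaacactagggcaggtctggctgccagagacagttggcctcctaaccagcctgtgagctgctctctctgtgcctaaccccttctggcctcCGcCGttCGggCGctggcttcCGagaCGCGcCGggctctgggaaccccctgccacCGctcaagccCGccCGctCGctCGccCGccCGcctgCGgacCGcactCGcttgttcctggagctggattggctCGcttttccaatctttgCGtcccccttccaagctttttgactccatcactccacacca
Sdk1 promoter, chr5:141241284-141241583, plus strand: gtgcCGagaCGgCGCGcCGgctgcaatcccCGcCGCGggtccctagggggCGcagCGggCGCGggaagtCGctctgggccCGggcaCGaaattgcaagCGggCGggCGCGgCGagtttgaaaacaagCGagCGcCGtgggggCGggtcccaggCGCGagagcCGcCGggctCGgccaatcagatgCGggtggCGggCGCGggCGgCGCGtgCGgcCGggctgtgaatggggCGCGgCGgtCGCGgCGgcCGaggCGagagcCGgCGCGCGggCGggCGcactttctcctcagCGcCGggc
The 4 promoters under lower peaks held 14 (Flrt2), 8 (Flrt3), 9 (Slitrk1) and 21 (Cdh8) CG, whereas Nxph1 held 21 and Sdk1 held 54. At least 1 CG was present in 94.6% of all 32851 RefSeq promoter windows of this length, with a median of 7. As many CG as in Sdk1 were present in 0.347% of all windows, as in Nxph1 or Cdh8 in 24.8%, and as in Flrt3 in 48.6%. RefSeq had an entry for 35 of the 44 members, and 21 had a window inside a tested peak of theirs. Under the 8 lower peaks among these the median was 9.5 CG (range 8 to 21), and under the 13 peaks not called it was 14 (range 4 to 54). Over all genes, 215 windows under lower peaks had a median of 9 CG and 4077 windows under peaks not called had a median of 14, so the members differed in the same direction as promoters at large. The CG is counted the same on both strands, and the count is a description of these windows.

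Most of the adhesion genes carried strong H3K27me3 in control retina. The median member had 12.2 CPM per kb of peak in controls, against 6.18 over all tested genes, and its peaks covered 9202 bp in all, against 4867 bp. Members were long genes, with a median RefSeq gene length of 185424 bp against 27580 bp for the 7101 tested coding genes that have a RefSeq length. The highest levels per kb were at the cerebellin gene Cbln2 (35.5 CPM per kb), the neurexophilin gene Nxph1 (28.0), Cbln1 (25.3), Flrt2 (22.8), the contactin gene Cntn4 (22.2), the epithelial cadherin gene Cdh1 (19.7), the neurexin ligand gene Lrrtm3 (18.3) and the immunoglobulin superfamily gene Sdk1 (17.7). Of these 8, Flrt2 and Lrrtm3 were lower in cKO and the other 6 were not called. The lowest was Adgrl2 with 3.87 CPM per kb among the 43 genes that could be tested. Cdh11 (4.03 CPM per kb over a single peak of 911 bp) held too few reads to be tested.

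H3K27me3 was lower in cKO than in control retina at 15 of the 43 tested members and higher at 1, Nxph4 (edgeR quasi-likelihood test with batch as a term, adjusted p under 0.05 over 11324 genes). That is 34.9% lower, beside 8.29 percent of all tested genes called lower, and 2.33% higher, beside 1.48 percent of all tested genes called higher. The log2 fold change was negative in 39 of 43 members (90.7%, against 46.8% of all genes), with a median of -0.23 against 0.015 over all genes. Among single peaks, 24 of 82 were lower (29.3%, beside 7.38 percent of all tested peaks) and 1 was higher (1.22%, beside 1.46 percent of all tested peaks). The members were chosen with results of these data known, so these contrasts with all genes and all peaks are a description. They were also not matched for the higher control level and wider peaks of the members. The 15 lower members fell by a median of 1.52-fold (range 1.24-fold to 2.32-fold), and over all lower genes the median was 1.39-fold. In each of the 15 genes all 5 cKO animals lay below the mean of the controls of their batch, which picking the genes by a test on these same animals favours.

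**Figure D1:**
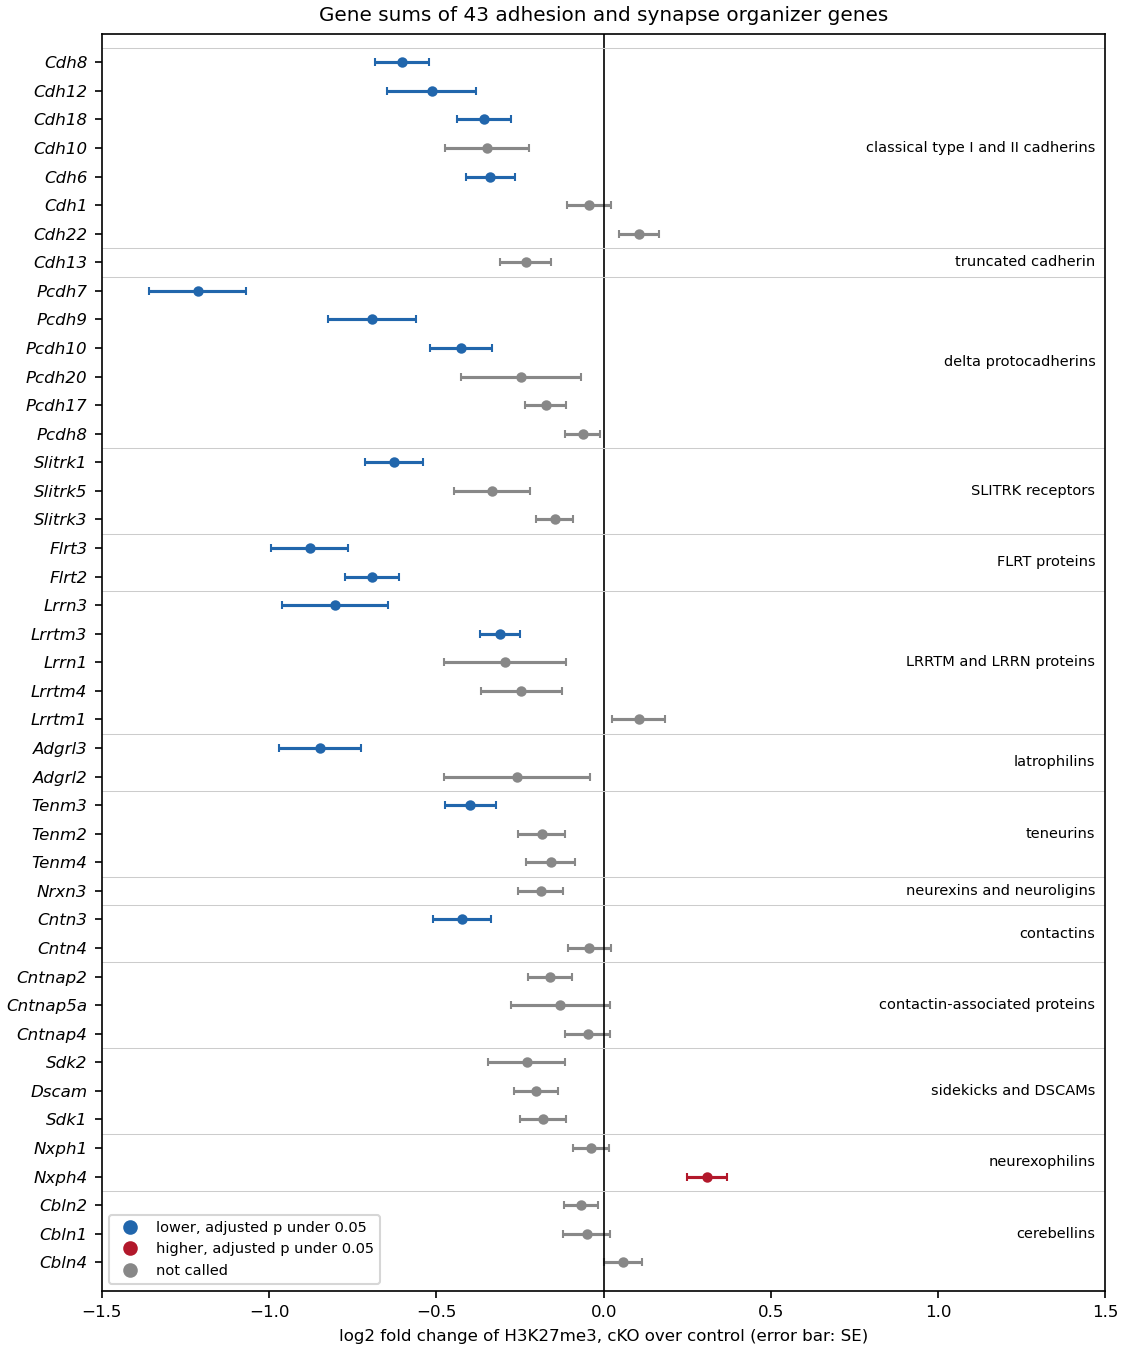
Log2 fold change of H3K27me3 (cKO over control, x axis) for the gene sums of the 43 tested members, ordered by family, with the standard error as the bar. Blue points are the 15 lower genes, the red point is Nxph4, and the grey points, which were not called, lie mostly to the left of 0.

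The delta protocadherins, which act in axon growth and sorting, had 3 lower members of 6 tested, beside 8.29 percent of all tested genes. Pcdh7 fell most of the whole set. Its level was 37.97, 71.1, 91.7, 84.4 and 76.5 CPM in control replicates 1 to 5 and 16.0, 18.5, 45.4, 38.2 and 38.3 CPM in cKO replicates 1 to 5. The groups were apart in each batch, and the lowest control, replicate 1, lay just below the cKO animals of batch 2. The means were 72.3 ± 20.7 and 31.3 ± 13.2 CPM (SD, n = 5 each), and the change on the log2 scale was -1.21 ± 0.14 (SE, adjusted p = 3.2e-05 in edgeR) over a single promoter peak (chr5:57718620-57723160, mm10).

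Pcdh9 held 24.8, 39.6, 35.8, 39.5 and 37.1 CPM in controls and 19.1, 20.5, 17.9, 23.1 and 28.4 CPM in cKO, a change of -0.69 ± 0.13 on the log2 scale (SE, adjusted p = 0.0015 in edgeR). All of its cKO animals but replicate 5 were below the lowest control. Pcdh10 held 81.8, 105.1, 94.3, 90.3 and 77.0 CPM in controls and 79.1, 72.6, 68.1, 53.8 and 61.5 CPM in cKO, with a log2 fold change of -0.43 ± 0.09 (SE, adjusted p = 0.0046). Pcdh17, Pcdh20 and Pcdh8 were not called, with log2 fold changes of -0.17, -0.25 and -0.06. Pcdh8 had the widest peak of any member, 30141 bp, with 513 ± 24.6 CPM in controls and 490 ± 15.3 CPM in cKO.

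Of the classical cadherins, 4 of 7 tested were lower, beside 8.29 percent of all tested genes. All 4 were type II genes, which give different sets of neurons their adhesive identity. Among the 7 tested, however, only Cdh1 was not of type II, and the type II genes Cdh10 and Cdh22 were not called. Cdh8, a type II cadherin known from bipolar cells of the OFF pathway, had 167.5, 210.8, 238.0, 274.0 and 240.0 CPM in controls and 103.9, 113.1, 178.8, 159.6 and 193.9 CPM in cKO. The groups were apart in both batches, although cKO replicates 3 and 5 lay above control replicate 1 of the other batch. The fall was -0.60 ± 0.08 on the log2 scale (SE, adjusted p = 6.3e-05 in edgeR). Cdh6, another type II cadherin known from the retina, had 112.9 to 139.8 CPM in controls and 81.7 to 119.6 CPM in cKO (log2 fold change -0.34 ± 0.07 SE, adjusted p = 0.0042).

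Cdh12 and Cdh18 are type II cadherin genes on chromosome 15, as are Cdh6 and Cdh10. Cdh12 had 61.3, 115.1, 80.9, 106.3 and 107.2 CPM in controls and 70.8, 56.0, 57.8, 71.1 and 71.9 CPM in cKO (log2 fold change -0.51 ± 0.13 SE, adjusted p = 0.017). Its groups overlapped in batch 1, because control replicate 1 was below cKO replicate 1. The call for Cdh12 was the least stable of the set: it was lost in 6 of 21 other settings, among them the fits that left out control replicate 4 or 5, or cKO replicate 3. Cdh18 had 105.1 to 142.2 CPM in controls and 84.3 to 110.3 CPM in cKO (log2 fold change -0.36 ± 0.08 SE, adjusted p = 0.0056). Cdh10 did not pass (log2 fold change -0.35 ± 0.13 SE, adjusted p = 0.11), although its 5 cKO animals (13.2 to 18.2 CPM) were all below its 5 controls (18.8 to 24.5 CPM). Cdh1 (226 ± 15.7 CPM in controls, 219 ± 16.4 in cKO) and Cdh22 (219 ± 31.6 and 236 ± 38.0) were not called. For the truncated, lipid-anchored cadherin Cdh13 the sum was not called (74.9 ± 7.19 and 63.5 ± 4.47 CPM, log2 fold change -0.23 ± 0.08 SE, adjusted p = 0.064), but its promoter peak was (-0.30 ± 0.09 SE, adjusted p = 0.039).

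FLRT proteins, latrophilins and teneurins are known to bind one another across the cleft. Of the 7 tested members of these families 4 were lower, beside 8.29 percent of all tested genes. These were 2 of 2 FLRT genes, 1 of 2 latrophilin genes and 1 of 3 teneurin genes, too few for a result about the families. Both tested FLRT genes fell. Flrt2 had 73.0, 85.6, 105.5, 100.4 and 95.3 CPM in controls and 40.8, 43.4, 67.3, 68.0 and 65.7 CPM in cKO. Every cKO animal was below every control, with -0.69 ± 0.08 on the log2 scale (SE, adjusted p = 2.8e-05 in edgeR). Flrt3, which lies inside an intron of Macrod2, had 133.9, 220.2, 237.3, 246.2 and 220.8 CPM in controls and 77.0, 69.7, 137.4, 140.0 and 159.8 CPM in cKO. Within each batch its groups were apart, and cKO replicates 3, 4 and 5 lay above control replicate 1 of batch 1 (log2 fold change -0.88 ± 0.11 SE, adjusted p = 5.8e-05).

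Adgrl3 encodes latrophilin 3, an adhesion G protein-coupled receptor for FLRT3 and teneurins. It had 47.2, 81.2, 80.5, 98.1 and 87.9 CPM in controls and 35.1, 36.1, 46.2, 42.7 and 58.2 CPM in cKO, or -0.85 ± 0.12 on the log2 scale (SE, adjusted p = 0.00014 in edgeR). Only cKO replicate 5 was above control replicate 1. Adgrl2 was thinly covered (8.28 ± 2.07 and 6.72 ± 1.72 CPM) and was not called.

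Tenm3, which guides the wiring of a subset of retinal ganglion cells, had 179.1, 241.6, 216.3, 218.5 and 209.3 CPM in controls and 139.5, 143.8, 173.3, 165.4 and 184.4 CPM in cKO. Control replicate 1 was again the lowest control, just below cKO replicate 5, and the fall was -0.40 ± 0.08 on the log2 scale (SE, adjusted p = 0.0015 in edgeR). Tenm2 and Tenm4, with 6 and 8 peaks, had log2 fold changes of -0.19 ± 0.07 (adjusted p = 0.11) and -0.16 ± 0.07 (SE, adjusted p = 0.20).

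SLITRK proteins organise synapses from the receiving side through receptor tyrosine phosphatases. Slitrk1 had 257.0, 402.7, 363.7, 372.4 and 384.3 CPM in controls and 225.9, 209.1, 223.1, 239.2 and 253.5 CPM in cKO. Every cKO animal was below every control, by a small margin to control replicate 1 (log2 fold change -0.63 ± 0.09 SE, edgeR adjusted p = 9.3e-05). Slitrk3 and Slitrk5 had log2 fold changes of -0.15 ± 0.06 (adjusted p = 0.12) and -0.33 ± 0.11 (SE, adjusted p = 0.072). Of the LRRTM and LRRN genes 2 of 5 were lower, beside 8.29 percent of all tested genes. Lrrtm3, which binds neurexins from the postsynaptic side and lies inside the catenin gene Ctnna3, had 156.3 to 200.1 CPM in controls and 140.9 to 158.4 CPM in cKO (log2 fold change -0.31 ± 0.06 SE, adjusted p = 0.0016). Lrrn3 had 10.2, 17.0, 17.3, 16.4 and 21.5 CPM in controls and 7.8, 6.8, 11.6, 10.2 and 9.9 CPM in cKO (log2 fold change -0.80 ± 0.16 SE, adjusted p = 0.0020). It was the least covered of the lower genes, and its call was lost when only the second technical duplicates of the batch 2 animals were used. Lrrtm1, Lrrtm4 and Lrrn1 were not called (log2 fold changes 0.11, -0.25 and -0.29).

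Contactin 3, a lipid-anchored immunoglobulin protein of axons, had 80.3, 100.7, 84.9, 104.0 and 87.9 CPM over the peaks of Cntn3 in controls and 65.6, 61.4, 77.7, 64.0 and 70.9 CPM in cKO. The groups did not overlap (log2 fold change -0.42 ± 0.09 SE, edgeR adjusted p = 0.0028). The heavily marked Cntn4 stayed uncalled at 164 ± 12.5 and 159 ± 8.62 CPM. None of the 3 contactin-associated genes was called in its sum: Cntnap2 had 96.5 ± 12.4 and 86.3 ± 6.09 CPM, and the log2 fold changes were -0.16 (Cntnap2), -0.05 (Cntnap4) and -0.13 (Cntnap5a). Sidekicks and Dscam direct retinal processes into their synaptic layers, and none of them was called. Sdk1 had 181 ± 15.1 and 159 ± 12.0 CPM (log2 fold change -0.18 ± 0.07 SE, adjusted p = 0.11), Dscam had 130 ± 9.96 and 113 ± 6.81 CPM (-0.20 ± 0.07, adjusted p = 0.064), and Sdk2 had -0.23 ± 0.11 (adjusted p = 0.24). Nrxn3, the presynaptic neurexin to which several of these proteins bind, had 128 ± 7.02 and 113 ± 16.1 CPM (-0.19 ± 0.07 SE, adjusted p = 0.082).

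Among the secreted organizers (neurexophilins and cerebellins) none was called lower over its named peaks, beside 8.29 percent of all tested genes. They are too few for a result about the group. Only Nxph4 stood at the upper end of the set, and the membrane protein genes Cdh22 and Lrrtm1 (both 0.11) lay above Cbln4 (0.06) on the log2 scale. Nxph4, which encodes a neurexophilin, was the one member with more H3K27me3. It had 280.4 and 305.8 CPM in the batch 1 controls and 325.6 and 353.4 CPM in the batch 1 cKO animals. In batch 2 the controls had 157.5, 143.4 and 135.1 CPM and the cKO animals 186.8, 190.3 and 190.6 CPM. The groups were apart in both batches, and the batches themselves differed by more than the genotypes (log2 fold change 0.31 ± 0.06 SE, edgeR adjusted p = 0.0020). The other neurexophilin gene, Nxph1, had 789.9 ± 54.7 and 769 ± 40.9 CPM over its named peaks and was not called. The 3 cerebellin genes, the most strongly marked family per kb, were not called: Cbln1 had 479 ± 49.3 and 463 ± 23.1 CPM, Cbln2 had 315 ± 10.3 and 300.4 ± 6.90 CPM, and Cbln4 had 244 ± 18.1 and 254 ± 6.26 CPM in controls and cKO.

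**Figure D2:**
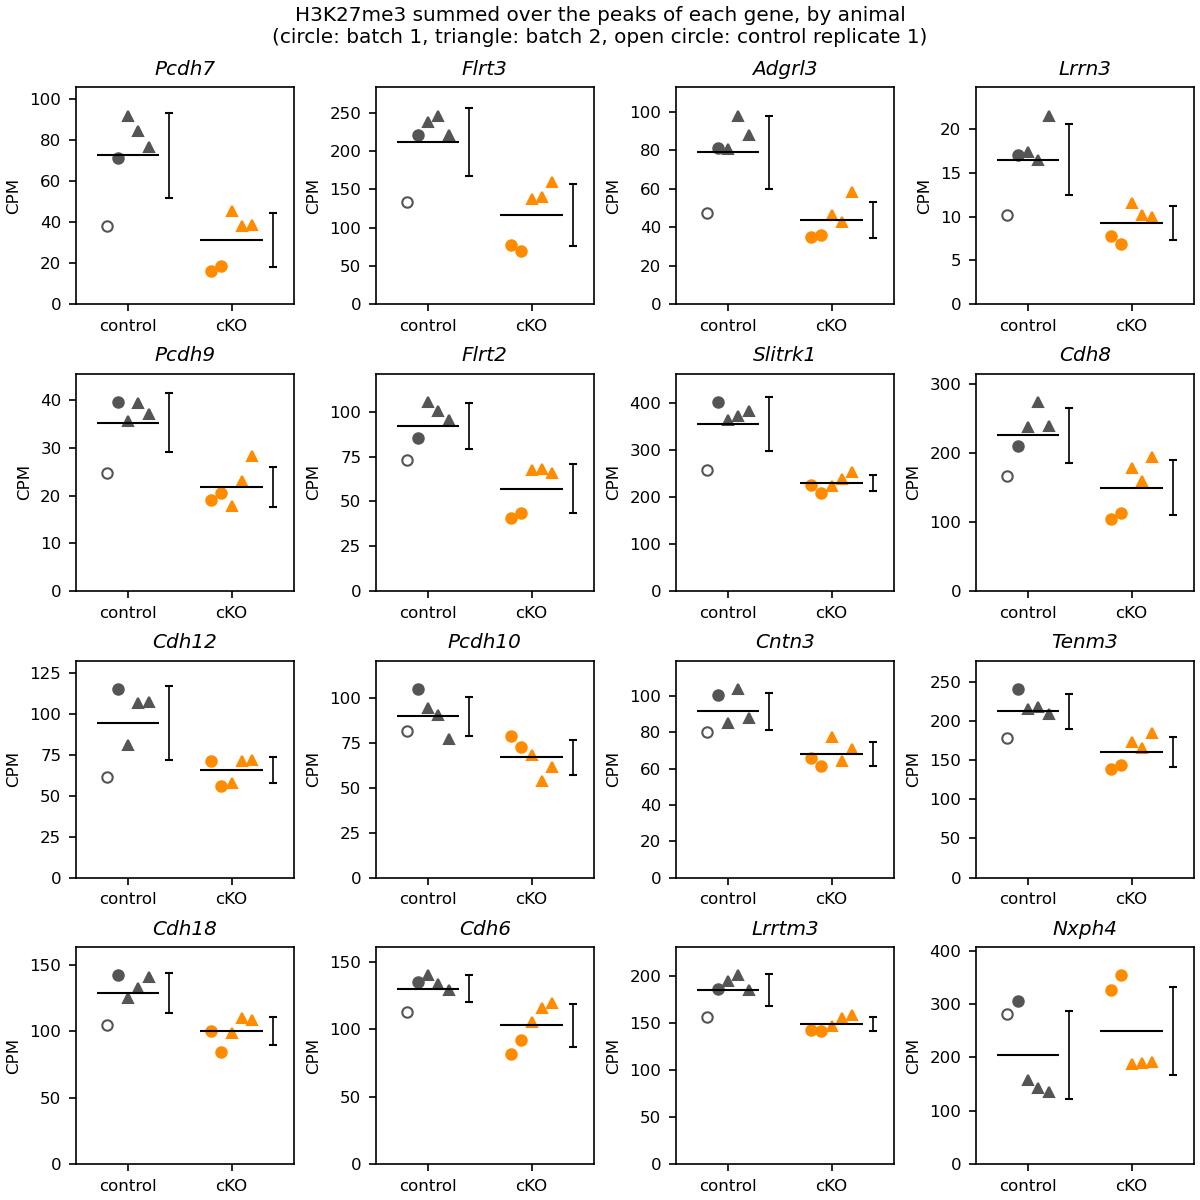
H3K27me3 level (CPM summed over the peaks of the gene, y axis from 0) of the 16 called members in each animal, ordered by log2 fold change, with the mean as a line and the SD as a bar. Circles are batch 1 and triangles batch 2, and the open circle, control replicate 1, is the lowest control in 14 of the 15 lower genes.

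Among the 27 members not called, 24 had a negative and 3 a positive log2 fold change. An unadjusted p under 0.05 in edgeR was found at 11, which misses the threshold and does not show that the others were equal. The count over all genes at that level was not taken. Of 76 further cadherins, protocadherins, SLITRK, neurexin, contactin and other synaptic adhesion genes, 57 had a peak and 54 could be tested. Of these, 2 were lower and 0 higher in edgeR, beside 8.29 percent lower and 1.48 percent higher over all tested genes. A negative value was found in 33 of the 54 (46.8% over all genes), and the median log2 fold change was -0.03. The lower relatives were Pcdh19, an X-linked delta protocadherin (72.8 ± 10.1 and 57.3 ± 6.88 CPM, log2 fold change -0.34 ± 0.08 SE, adjusted p = 0.0050), and C1ql3, a secreted synaptic protein of the cerebellin superfamily (212 ± 18.3 and 180 ± 11.3 CPM, -0.23 ± 0.07 SE, adjusted p = 0.035). The members were chosen with results of these data known, so the contrast with their relatives is a description.

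The genotype difference had the same direction in both batches at all 15 lower members, with medians on the log2 scale of -0.58 in batch 1 and -0.56 in batch 2. The 15 were picked by the fit to both batches together, so this describes them and is not a replication. In batch 2 alone 14 of the 15 were called, beside 707 of all 11305 genes called lower in that fit. With 2 animals a genotype, batch 1 alone called none of the 43 members in edgeR, nor any of all genes. There 18 members had an unadjusted p under 0.05, and the count over all genes at that level was not taken. The difference between batches was called in 0 of 43 members by edgeR's batch by genotype term (only Flrt3 had an unadjusted p under 0.05), beside 0.00864 percent of all genes. In batch 1 the Flrt3 log2 fold change was -1.25.

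Control replicate 1, the only control whose sample label lists Cre (Jarid2 fl/+; Rx-cre, against the protocol text), had the least H3K27me3 of the 5 controls at 14 of the 15 lower members and at 10 of the 28 others. Over all tested genes it was the lowest control in 25.0%, and over all 939 genes lower in cKO in 85.1%. At the 15 lower members its level minus that of control replicate 2, its batch mate, had a median of -0.43 on the log2 scale, and the mean of the 2 cKO animals of that batch minus control replicate 2 had a median of -0.89. Over all 939 genes lower in cKO these medians were -0.38 and -0.74. Control replicate 1 lay between its batch mate and both cKO animals of that batch at 14 of the 15 lower members. It did so at 804 of all 939 lower genes, at 12 of the 28 other members and at 2218 of all 11324 tested genes. It was male and its batch mate female. The female and the male cKO animal of that batch had medians of -0.49 and -0.44 over the 15 genes, relative to the mean of the 10 animals, and the 3 male controls of batch 2 had 0.36 to 0.44, beside 0.45 in the female control. The 15 genes were picked for low cKO values, and a part of sex was not tested. Between the controls of batch 1, sex and labelled genotype differed together. The labelled genotype and the single animal cannot be told apart, since no other animal shares that label. Without it 18 members were lower in place of 15, and over all genes 1029 of 11520 in place of 939 of 11324.

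**Figure D3:**
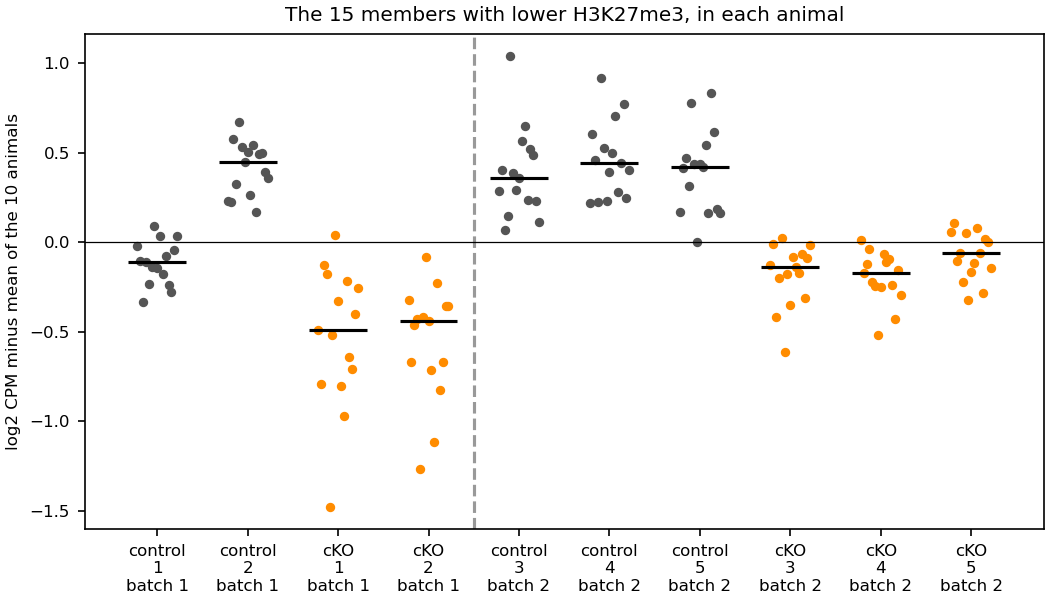
Log2 CPM of the 15 lower members (points) in each animal, relative to the mean of the 10 animals for that gene (y axis), with the median as a line and the batches split by the dashed line. Control replicate 1 has a median of -0.11, the other 4 controls lie between 0.36 and 0.45, and the cKO animals lie between -0.49 and -0.06.

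Single peaks were also set out by their annotated place, although the test within genes, given below, called 0 of 58 member peaks. Of the tested member peaks 55 were annotated as promoter, 21 as intron, 1 as exon and 5 as distal. Lower peaks numbered 16 among promoters, 7 among introns, 1 in the exon and 0 among distal peaks in edgeR (and 1 promoter peak, at Nxph4, was higher). Over all genes, 4.25% of promoter peaks, 15.4% of intron peaks and 9.51% of distal peaks were lower. The median log2 fold change of member peaks was -0.17 at promoters and -0.43 in introns, beside 0.03 and -0.07 over all peaks.

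**Figure D4:**
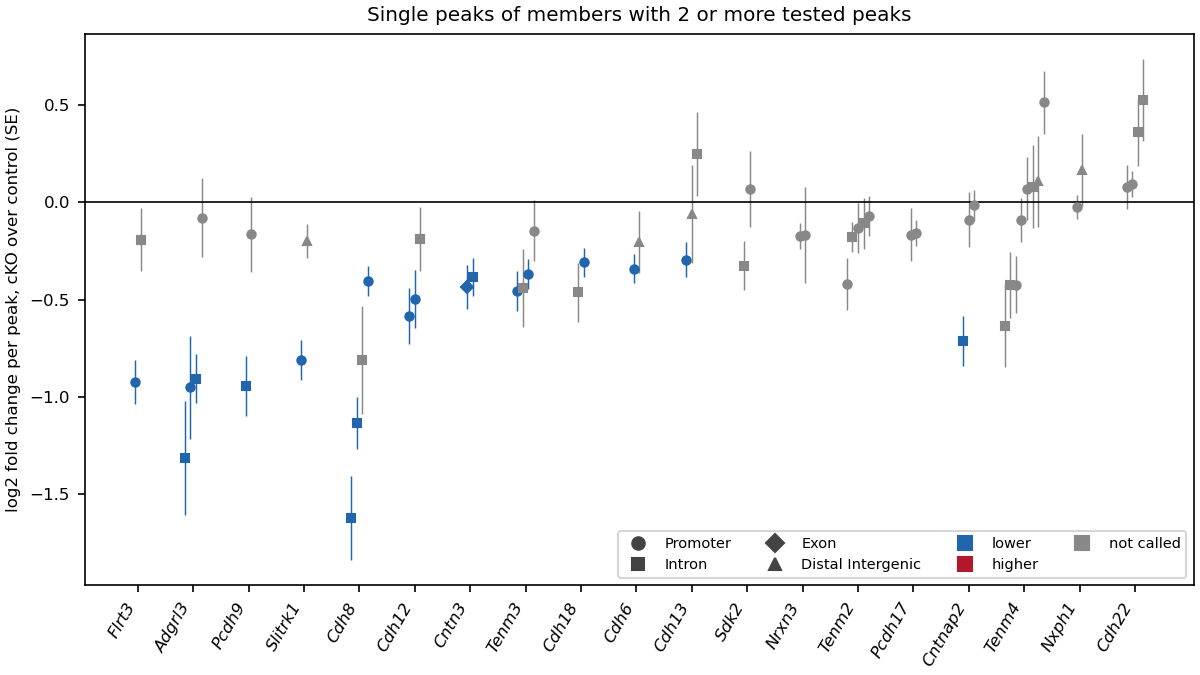
Log2 fold change of each tested peak (cKO over control, y axis, with its SE) for the 19 members with 2 or more tested peaks, ordered by the change of the gene sum. Circles are promoter peaks and squares intron peaks, and blue peaks are called lower: Cdh8, Adgrl3, Pcdh9 and Cntnap2 each have a blue intron peak that lies below their least changed promoter peak. A promoter peak is blue as well in Adgrl3 (-0.95) and in Cdh8 (-0.41), and the test within genes called 0 of 58 member peaks.

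Cdh8 had 4 peaks. The promoter peak (chr8:99412150-99422690, the region of the Cdh8 sequence above) had 138.76, 147.88, 166.21, 192.20 and 159.93 CPM in controls and 92.53, 98.41, 138.35, 128.19 and 152.08 CPM in cKO (log2 fold change -0.41 ± 0.08 SE, edgeR adjusted p = 0.0011). An intron peak 43.8 kb into the gene (chr8:99369180-99372470) had 20.74, 35.57, 49.18, 52.52 and 49.87 CPM in controls and 7.40, 11.43, 25.92, 22.99 and 26.13 CPM in cKO (log2 fold change -1.14 ± 0.13 SE). A small intron peak beside it (chr8:99366010-99367500) went from 11.4 ± 3.73 to 3.60 ± 1.70 CPM (log2 fold change -1.62 ± 0.22 SE). Relative to the control mean of the batch, the promoter kept 75.1% ± 9.29 of its level and these intron peaks kept 43.1% ± 10.4 and 30.5% ± 8.17 (SD, n = 5).

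At Slitrk1 the order was the reverse. The promoter peak (chr14:108903000-108917100) had 159.50, 279.53, 280.73, 266.51 and 272.24 CPM in controls and 145.41, 131.22, 134.76, 150.29 and 153.49 CPM in cKO (log2 fold change -0.81 ± 0.10 SE, called). A peak 298.9 kb away that the annotation also gives to Slitrk1 had 102 ± 14.0 and 88.1 ± 5.37 CPM (-0.20 ± 0.09 SE, edgeR adjusted p = 0.18, not called). At Flrt3 the promoter peak (chr2:140662990-140676500) had a log2 fold change of -0.92 ± 0.11 (SE, called). A smaller peak 16.5 kb from the start had -0.19 ± 0.16 (SE, not called). It is annotated as intron but overlapped the coding gene Macrod2 and not the Flrt3 gene body. In Pcdh9 an intron peak was lower (25.5 ± 5.84 and 13.1 ± 3.17 CPM, -0.94 ± 0.15 SE), while the promoter peak had -0.17 ± 0.19. In Cntnap2, an intron peak 44.5 kb from a start site was lower (9.38, 9.98, 26.56, 30.35 and 25.16 CPM in controls, 4.23, 5.47, 17.94, 16.80 and 17.26 CPM in cKO, -0.71 ± 0.13 SE, adjusted p = 0.00076), and the 2 promoter peaks had -0.02 and -0.09.

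A test of whether a peak differed from the rest of its own gene (diffSpliceDGE in edgeR) called 0 of 58 member peaks and 0 of 19 members, beside 0.306 percent of all peaks in that test. At an unadjusted p under 0.05 there were 11 peaks and 7 members, and the count over all peaks and genes at that level was not taken. Cdh8 (adjusted p = 0.17) and Slitrk1 (adjusted p = 0.40) passed without control replicate 1 (0.038 and 0.00070) and in batch 2 alone (0.048 and 0.00022). Over all 10 animals the small Cdh8 intron peak differed from its gene as a whole by -1.02 on the log2 scale, against -1.06 and -1.05 in those settings, and the distal Slitrk1 peak by 0.41, against 0.50 and 0.56. The direction was the same in all 3 fits, and the call was made in the latter 2. Neither gene passed in the other settings of this test. Over all genes 19 of 3121 passed in the main fit, 47 of 3278 without control replicate 1 and 33 of 3120 in batch 2 alone.

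The deposited annotation gave the members only some of the peaks that lie in them. A further 30 peaks lay inside the RefSeq gene bodies of 12 members and carried another gene's name, mostly that of a predicted gene. Of these, 24 could be tested, 12 were lower and 0 higher, beside 7.38 percent lower and 1.46 percent higher among all tested peaks and 15.4% lower among intron peaks. The largest lay in Nxph1, 110.9 kb after its RefSeq start, and is assigned to Gm35736 (chr6:9060890-9078140, 17251 bp). It had 155.1, 285.1, 334.2, 351.3 and 303.2 CPM in controls and 123.7, 126.7, 151.5, 160.0 and 151.2 CPM in cKO, and control replicate 1 was the one control near the cKO animals. It fell by 0.99 ± 0.11 on the log2 scale (SE, adjusted p = 8.8e-06 in edgeR). The Nxph1 promoter peak, the region of the sequence above, had 775 ± 63.8 and 762 ± 51.2 CPM (-0.02 ± 0.06 SE). The gene body peak kept 50.8% ± 5.66 of the control level of its batch and the promoter peak 98.3% ± 4.10 (SD, n = 5), and the difference between these peaks was not tested.

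**Figure D5:**
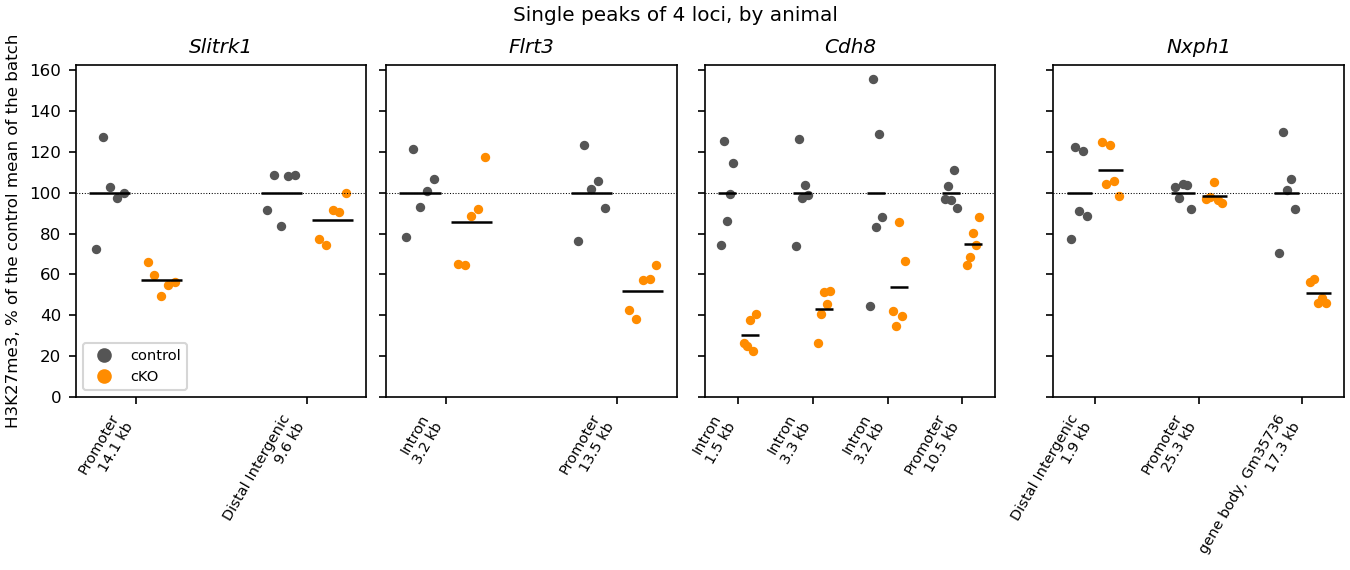
H3K27me3 of single peaks at Slitrk1, Flrt3, Cdh8 and Nxph1 in each animal, as a percent of the control mean of the same batch (y axis from 0), with group means as lines and peak widths under each peak. The cKO animals lie at 45.9% to 57.6% in the Nxph1 gene body peak and at 95.0% to 105.4% in its promoter peak.

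In Sdk1 3 such peaks were lower. Of these, 1 was assigned to Gm26970, 934.6 kb from the Sdk1 start. It had 113 ± 5.15 and 85.3 ± 10.2 CPM (log2 fold change -0.40 ± 0.08 SE, edgeR adjusted p = 0.0015). The Sdk1 promoter peak, the region of the sequence above, had -0.17 ± 0.07 (SE, edgeR adjusted p = 0.18, not called). The difference between the Sdk1 peaks was not tested. In Cdh12 2 such peaks were lower (-0.84 ± 0.15 and -0.93 ± 0.13 SE), and Tenm2 (-0.85 ± 0.15), Tenm3 (-0.74 ± 0.15), Tenm4 (-0.74 ± 0.19), Cntnap2 (-0.68 ± 0.15), Cdh13 (-0.60 ± 0.10) and Pcdh7 (-0.41 ± 0.12) had 1 each. A peak in the body of Flrt1, assigned to Otub1, was not called (-0.37 ± 0.18 SE, adjusted p = 0.25). When peaks were assigned by RefSeq gene body instead, the 43 members tested included Flrt1 and left out Adgrl2, whose peak lies outside its gene body. Of these, 20 were lower, beside 6.06 percent of the 5713 genes tested that way: the 15 above with Sdk1 (-0.28), Nxph1 (-0.23), Cntnap2 (-0.27), Cdh13 (-0.22) and Tenm2 (-0.24).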

How the data were processed

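H3K27me3 CUT&RUN libraries (16 of the 22 in the labels) were used, and the 6 made with IgG were left out. Per the labels' protocols, libraries were sequenced paired-end. The mouse build mm10, MACS2, SAMtools, DESeq2 1.38.1 and Novoalign 4.02.02 are listed, without their roles, per the submitters' processing notes. The authors deposited whole-number counts per peak and library for 1 common peak set with its annotation, and the sources used here do not say which libraries the peak calls rest on. Their fold changes and p-values were not used.

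The 2 duplicates of an animal agreed within sampling noise (chi-square over degrees of freedom 0.88 to 0.997; between animals 1.05 to 2.53) and were summed, so that an animal is a sample. Peaks of a gene were summed. Features with low counts were removed with filterByExpr, and edgeR 4.0.16 (R 4.3.3) was run with TMM factors, batch as an additive term, the quasi-likelihood test and Benjamini-Hochberg adjustment over 11324 genes or 16307 peaks. A call is an adjusted p under 0.05. TMM factors came from gene sums and from peaks separately, so the CPM of a gene with 1 peak differs slightly between them. The standard error is the size of the log2 fold change divided by the square root of F. Peak positions are as deposited.

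In simulated data 60% of genes changed 1.5-fold and 93% of those changed 2-fold were called (3 of 156 calls false); for peaks these were 36% and 86%, and for the test within genes 18% and 61% (52 of its 131 calls were on unchanged peaks, 49 of them on other peaks of a changed gene). The members and lists were chosen with earlier results of these data known. Described in full are members called in their sum or in a peak, the 8 with the highest control level per kb and the member with the smallest p in each family; relatives are named only where called; sequences are given for 6 members whose RefSeq promoter lies in a peak. Alternatives were other scalings, no filter, DESeq2 1.42.0, no batch term, a replicate block, each batch or duplicate alone, RefSeq gene bodies and leaving out each animal. Figures were drawn with matplotlib 3.10.9 (Python 3.11.15).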

Additional observations from a re-analysis of the deposited data

Results flagged for a closer look

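In 6 of 86 groups of 5 animals examined (43 members, each genotype), 1 animal stood apart from the others of its group by Dixon's test on log2 CPM, and chance flags about 1 in 20 groups. In all 6 it was control replicate 1, as the lowest control: Pcdh7 (37.97 CPM, the next control at 71.1), Pcdh9 (24.8, next 35.8), Slitrk1 (257, next 364), Flrt3 (134, next 220), Adgrl3 (47.2, next 80.5) and Tenm4 (90.5, next 120). The first 5 are members called lower in cKO. The genes share the same animal and library, so these are not separate events. That animal is the Jarid2 fl/+; Rx-cre control, and its part in these results beyond the values without it was not tested.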

How the results depend on the processing

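The 15 lower members numbered 14 to 18 when each animal was left out (18 without control replicate 1) and the 1 higher member stayed at 1; lower peaks numbered 19 to 28, higher peaks 1 to 2 (2 without cKO replicate 3), and members with peaks that differ within the gene 0 to 2 (2 without control replicate 1). Over all genes 734 to 1029 were lower when each animal was left out (1029 without control replicate 1). Without a batch term 9 members and 11 peaks were lower and 0 members and 0 peaks higher. The counts over all genes and peaks fell as well, to 249 of 10972 genes and 338 of 15415 peaks lower. Batch 1 alone gave 0 lower and 0 higher members and peaks in edgeR, and 0 of either over all genes and peaks. In it 18 members had an unadjusted p under 0.05. Batch 2 alone gave 2 members with peaks that differ within the gene, beside 33 of all 3120 genes in that test. Total counts in place of TMM factors gave 2 higher peaks, and over all genes 758 lower and 467 higher calls in place of 939 and 168. DESeq2 gave 15 lower and 1 higher members and 17 and 1 peaks, with 711 of 12370 genes and 786 of 19034 peaks lower over all. Of the 16 called members, 7 lost the call without the batch term, all 16 in batch 1 alone, and at most 1 in any other setting; none changed direction. Members not called that changed sign were Cdh1 (0.014), Cntn4 (0.016), Cntnap4 (0.0085), Nxph1 (0.021) and Cbln1 (0.0081) under total counts, Cdh1 (0.015) in batch 2 alone, Cntnap4 (0.015) and Cntnap5a (0.0079) in batch 1 alone, and Cntnap4 (0.036) with the second duplicates alone. The cause of these changes was not tested.

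Replicate numbers are only names here: same-numbered animals deviated together with r of -0.44 in batch 1 and 0.014 to 0.094 in batch 2. With a replicate block 17 members were lower and 1 higher, with 23 lower and 1 higher peaks and 0 members differing within the gene. Over all genes 1030 of 11574 were then lower. The RefSeq setting used gene bodies only, without a stretch before the start, because the table used here gives no strand. At this depth and number of animals, 1.5-fold changes of single peaks were mostly missed in simulated data; depth was not varied.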
